A study of Mus musculus with 6 samples.

Results

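Smooth-muscle contractile and myofibroblast genes were followed in mouse adult fibroblasts (MAFs) as the 10 rows of the gene count table named *Acta2*, *Actg2*, *Tagln*, *Cnn1*, *Myl9*, *Myh11*, *Tpm1*, *Tpm2*, *Lmod1* and *Des*, out of 43346 genes. All 10 passed the filter on low counts, which kept 17589 genes. In senescent cells 5 of them were higher (*Myh11*, *Des*, *Lmod1*, *Tagln* and *Tpm1*), 2 were lower (*Tpm2* and *Actg2*), and *Acta2*, *Cnn1* and *Myl9* did not pass the test. Over all 17589 tested genes 36.2% were called higher and 34.1% lower. The call of *Actg2* was lost in all 13 alternative fits. *Myh11*, *Des* and *Lmod1* rose most and had the least RNA in control cells, but *Actg2*, also a low-level gene, did not rise. *Acta2*, the most abundant of the 10 per length, stood at 1171 ± 32.8 CPM in control against 1172 ± 122 CPM in senescent cells (mean ± SD, n = 3 libraries each). CPM are counts scaled to a common library total, here after TMM scaling between libraries.

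The study asked how senescence changes the circadian clock and its targets, and this RNA-seq compared 3 control with 3 senescent libraries. The MAFs were primary ear cultures of female adult C57BL6/J mice, used at passages 3 to 8 and grown in DMEM with 10% FBS under 3% oxygen. A sham irradiation was given to control cells, and the senescent ones received 20 Gy of X-rays and were kept for 21 days. Both groups were given 100 nM dexamethasone, a glucocorticoid that synchronises cellular clocks, for 2 hours and were collected 12 hours afterwards, so every library came from cells exposed to glucocorticoid and a single time point was measured. Nothing in the labels states that the replicates are separate cultures, so the p-values measure the spread between these libraries, which may be technical. In bulk RNA a change in the share of cells that express a gene and a change in RNA per cell cannot be told apart.

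Smooth muscle cells contract through filaments of muscle actin and smooth-muscle myosin, steadied by tropomyosin, calponin and transgelin and tied to desmin filaments. Fibroblasts take up part of this apparatus when they become myofibroblasts, the contractile cells of healing wounds and fibrotic tissue, and incorporation of smooth muscle α-actin into stress fibres is their classical mark. Many of these genes are known targets of serum response factor (SRF), which binds CArG boxes in their promoters together with myocardin or the myocardin-related factors MRTF-A and MRTF-B, whose activity depends on the pool of monomeric actin, and TGF-β is the best known inducer of the myofibroblast state.

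The promoters of *Acta2*, *Myl9* and *Lmod1* are shown because these genes carry CArG boxes or near matches close to the start and yet differed in their calls, with *Lmod1* higher in senescent cells and *Acta2* and *Myl9* not called. Each sequence is the 250 bases before the RefSeq transcription start (GRCm38.p6, the assembly of mm10), written 5′ to 3′ on the strand of the gene. Capitals mark a CArG box (CC, then 6 bases that are A or T, then GG) or a match with 1 mismatch to it. The *Acta2* promoter lies at chr19:34255374-34255623 on the minus strand, the *Myl9* promoter at chr2:156775214-156775463 on the plus strand and the *Lmod1* promoter at chr1:135324563-135324812 on the plus strand.
Acta2: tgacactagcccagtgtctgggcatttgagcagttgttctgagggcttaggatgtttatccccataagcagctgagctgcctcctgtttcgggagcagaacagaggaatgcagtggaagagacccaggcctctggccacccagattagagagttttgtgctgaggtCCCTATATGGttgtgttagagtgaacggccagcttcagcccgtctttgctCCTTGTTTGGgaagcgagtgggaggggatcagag
Myl9: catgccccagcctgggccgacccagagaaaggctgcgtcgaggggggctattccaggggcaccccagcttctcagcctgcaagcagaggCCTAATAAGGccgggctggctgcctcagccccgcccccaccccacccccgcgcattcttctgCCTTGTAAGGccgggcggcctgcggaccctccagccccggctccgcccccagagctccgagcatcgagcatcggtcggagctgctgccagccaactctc
Lmod1: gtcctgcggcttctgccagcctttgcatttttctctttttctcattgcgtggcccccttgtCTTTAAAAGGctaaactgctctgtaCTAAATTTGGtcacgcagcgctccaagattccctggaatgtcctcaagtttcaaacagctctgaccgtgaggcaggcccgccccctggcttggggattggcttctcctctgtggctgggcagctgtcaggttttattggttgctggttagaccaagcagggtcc

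The exact box of *Myl9*, CCTAATAAGG, covers bases -161 to -152 from the start, and its near match CCTTGTAAGG covers bases -99 to -90. In *Acta2* the near matches are CCCTATATGG at bases -84 to -75 and CCTTGTTTGG at bases -34 to -25. In *Lmod1* they are CTTTAAAAGG at bases -189 to -180 and CTAAATTTGG at bases -164 to -155. *Tpm1* has near matches at bases -221 to -212 (CCATATATAG) and -80 to -71 (CCAAAAAAGT), whereas no match was present in these windows of *Cnn1*, *Tpm2* and *Des*. For *Tpm1* and *Tpm2*, both on the minus strand, the RefSeq start lies inside the gene as counted. Their windows are chr9:67049214-67049463 and chr4:43523555-43523804, and the counted genes end at 67049406 and 43523765. Little sequence upstream of these counted genes was therefore searched. The promoter table held 7 of the 10 genes, without *Actg2*, *Tagln* and *Myh11*. The box reads the same on both strands, so both were covered. Of all 32851 promoters of this length, 482 (1.47%) held an exact box and 6117 (18.6%) an exact box or a near match, against 1 and 4 of these 7. A match describes the letters and not a bound site, and binding of SRF was not measured.

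The libraries held 50288454 to 82229553 counts on genes. Senescence markers differed between the groups, with *Cdkn1a*, which encodes the cell cycle inhibitor p21, at 123 ± 2.01 CPM in control against 620 ± 16.3 CPM in senescent cells, and *Cdkn2a*, the locus of p16, at 1.20 ± 0.0738 and 4.50 ± 1.5 CPM. The proliferation genes *Mki67* and *Top2a* and the lamin gene *Lmnb1* had log2 fold changes of -5.94, -5.20 and -3.55. Fibroblast markers were abundant in all libraries (10 genes, summed level 15441 to 17287 CPM in control against 6572 to 7696 CPM in senescent cells). The sum is mostly *Col1a1*, *Col1a2* and *Vim*, and of the 10 genes 5 were lower and 4 higher, among the latter *Dcn*, decorin, at 56.6 and 643 CPM, and *Thy1* at 107 and 298 CPM. Chondrocyte markers were also present and moved with the group, at 6725 to 7212 CPM in control against 587 to 655 CPM in senescent cells, with 6 of 6 tested genes lower. With the quasi-likelihood test of edgeR and Benjamini-Hochberg adjustment, 36.2% of all tested genes had an adjusted p under 0.05 and were higher in senescent cells, and 34.1% were lower, so 5 higher and 2 lower of 10 are to be read against a transcriptome in which most genes were called. The values of control and senescent libraries did not overlap for 7 of the 10 genes, against 75.3% of all tested genes. Fold changes are senescent over control.

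**Figure D1:**
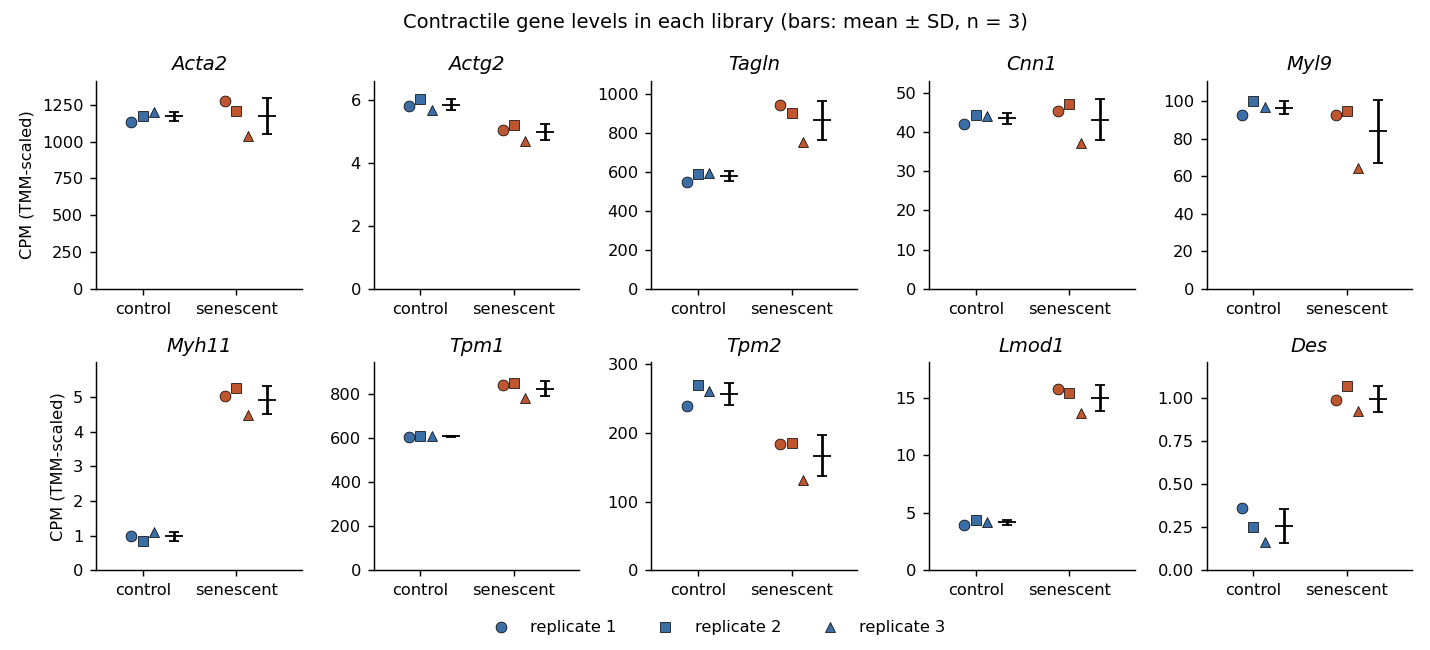
Level of each of the 10 contractile genes in every library, in CPM after TMM scaling (linear axes from 0), with control libraries in blue, senescent libraries in red, marker shapes for the replicate number and bars for mean ± SD (n = 3). *Myh11*, *Lmod1*, *Des*, *Tagln* and *Tpm1* lie higher in all 3 senescent libraries than in any control library, *Tpm2* and *Actg2* lie lower, and senescent replicate 3 is the lowest of its group in all 10 panels.

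Neither smooth-muscle actin was called higher. *Acta2* (chromosome 19, 34241090 to 34255336, mm10) encodes smooth muscle α-actin, the marker protein of myofibroblasts. It measured 1137, 1176 and 1202 CPM in the control and 1273, 1207 and 1036 CPM in the senescent libraries. The senescent values lay on both sides of the control values, and the log2 fold change was 0.00 (SE 0.08, 95% confidence interval -0.19 to 0.19, adjusted p = 0.996). *Actg2* (chromosome 6, 83512905 to 83536265) encodes the γ-actin of visceral smooth muscle and was a low-level gene, with 5.83, 6.06 and 5.70 CPM in control against 5.05, 5.21 and 4.72 CPM in senescent cells. All 3 senescent values were below all control values, with a log2 fold change of -0.23 (SE 0.09, adjusted p = 0.0427). This call was lost in all 13 alternative analyses, where the log2 fold change stayed between -0.26 and -0.16 and the adjusted p ranged from 0.0512 to 0.149.

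Of the actin-binding proteins, *Tagln* and *Lmod1* rose and *Cnn1* did not pass the test. *Tagln* (chromosome 9, 45929628 to 45936058) encodes transgelin, or SM22α, which bundles actin filaments. Its level was 548, 591 and 594 CPM in control against 943, 902 and 752 CPM in senescent cells. The lowest senescent library was above the highest control library, and the log2 fold change was 0.58 (SE 0.09, adjusted p = 0.000610), a 1.5-fold difference. In the GENCODE M21 annotation 5.43% of the exonic bases of *Tagln* are shared with *Pcsk7* and 62.4% with the antisense gene *Gm48529*, both on the other strand. The libraries were stranded, but the strand setting of the counting is not given in the sources used here, so a part of reads from these genes in the *Tagln* counts was not tested. *Pcsk7* itself measured 48.1 ± 0.368 CPM in control against 32.4 ± 2.40 CPM in senescent cells, and *Gm48529* was not analysed here.

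*Lmod1* (chromosome 1, 135324807 to 135368065) encodes leiomodin 1, which nucleates actin filaments in smooth muscle cells. It measured 3.95, 4.35 and 4.23 CPM in control against 15.8, 15.5 and 13.7 CPM in senescent cells, from 197 to 260 counts per control library and 877 to 1226 counts per senescent library. The groups were far apart relative to their spread, at a log2 fold change of 1.84 (SE 0.09, adjusted p = 1.29e-06) or 3.58-fold. *Cnn1* (chromosome 9, 22099281 to 22109630) encodes calponin 1, a regulator of actin and myosin interaction in differentiated smooth muscle. Its values of 41.9, 44.4 and 44.2 CPM in control against 45.2, 47.1 and 37.1 CPM in senescent cells overlapped, with a log2 fold change of -0.01 (95% confidence interval -0.23 to 0.21, adjusted p = 0.921), whose sign turned under RLE scaling and under scaling by library size alone.

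The myosin genes differed from each other. *Myh11* (chromosome 16, 14194527 to 14291408) encodes the smooth-muscle myosin heavy chain, the gene most restricted to smooth muscle among the 10. It was at 1.00, 0.837 and 1.10 CPM in control against 5.03, 5.25 and 4.47 CPM in senescent cells, which came from 50 to 54 counts per control library and 279 to 416 counts per senescent library. It had the largest fold change of the 10, 5.03-fold or 2.33 on the log2 scale (SE 0.14, adjusted p = 3.08e-06). *Myl9* (chromosome 2, 156775420 to 156781658) encodes the regulatory light chain whose phosphorylation triggers contraction. Its control values of 92.7, 100.1 and 97.1 CPM lay beside 92.8 and 94.6 CPM in senescent replicates 1 and 2 and 64.7 CPM in senescent replicate 3. The groups overlapped and the log2 fold change of -0.20 did not pass the test (95% confidence interval -0.52 to 0.11, adjusted p = 0.217).

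The tropomyosin genes moved in opposite directions. *Tpm1* (chromosome 9, 67022590 to 67049406), which encodes α-tropomyosin and its many splice forms, measured 607, 609 and 612 CPM in control against 844, 849 and 785 CPM in senescent cells. The control libraries differed by under 1% in coefficient of variation (0.432%), the groups did not overlap, and the log2 fold change was 0.44 (SE 0.05, adjusted p = 0.000176). *Tpm2* (chromosome 4, 43514711 to 43523765), which encodes β-tropomyosin, measured 239, 271 and 262 CPM in control against 184, 186 and 132 CPM in senescent cells. Every senescent library was below every control library, with a log2 fold change of -0.62 (SE 0.13, adjusted p = 0.00317), so that control cells held 1.54-fold more. Muscle and non-muscle splice forms of *Tpm1* and *Tpm2* share exons and are summed in counts per gene, so these values do not say which form changed.

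*Des* (chromosome 1, 75360329 to 75368579) encodes desmin, the intermediate filament protein of muscle, and had the least RNA of the 10. It had 18, 15 and 8 counts in the control and 55, 85 and 78 counts in the senescent libraries, or 0.361, 0.251 and 0.163 CPM against 0.992, 1.07 and 0.924 CPM. The groups did not overlap although the control libraries varied most here (coefficient of variation 38.3%), and the log2 fold change was 1.94 (SE 0.26, adjusted p = 0.000271). In the annotation 5.86% of its exonic bases are shared with the antisense gene *Gm15179*, which was at 0.0204 CPM in control against 0.0344 CPM in senescent cells.

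By the limits in the methods of the study for differentially expressed genes (DEGs), an unadjusted p under 0.05 with an absolute log2 fold change over 1, 3 of the 10 were higher (*Myh11*, *Des* and *Lmod1*) and 0 were lower. Over all tested genes 17.8% were DEGs in the higher and 12.3% in the lower direction. A stricter limit on p also stands in the results text of the study. With an unadjusted p under 1e-05 and the same fold, 2 of the 10 were higher (*Myh11* and *Lmod1*, without *Des*) and 0 lower, against 8.27% and 7.0% of all tested genes. *Myh11*, *Des* and *Lmod1* were all under 5 CPM in control cells. The median log2 fold change was 0.22 over the 10 genes and 0.01 over all tested genes.

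**Figure D2:**
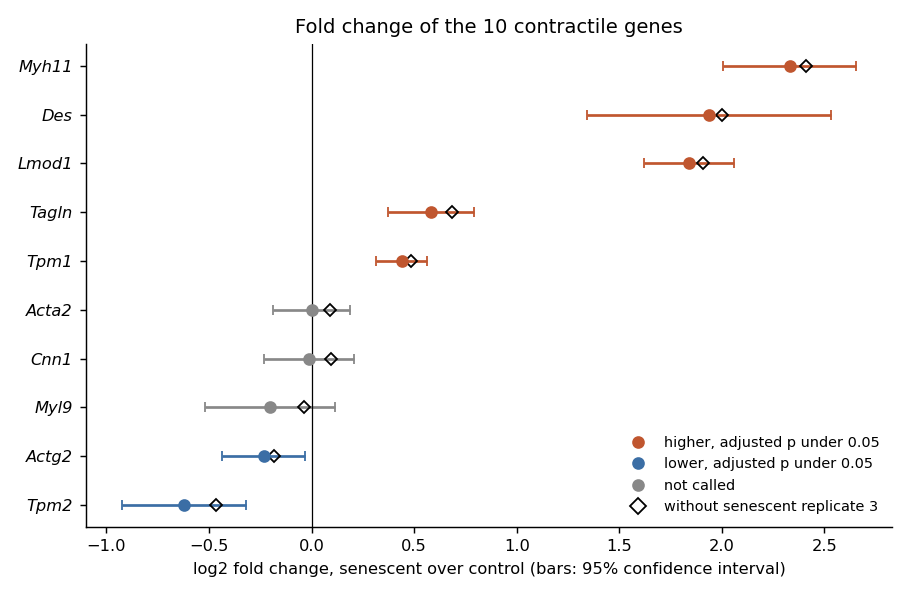
Log2 fold change (senescent over control) of the 10 genes from the quasi-likelihood fit of edgeR, with 95% confidence intervals as bars, colours for the call at an adjusted p under 0.05, and open diamonds for the fit without senescent replicate 3. The fold changes run from -0.62 for *Tpm2* to 2.33 for *Myh11*, the intervals of *Acta2*, *Cnn1* and *Myl9* cross 0, and every diamond lies to the right of its filled point.

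Senescent replicate 3 was the lowest library of its group in all 10 genes, whereas it was the lowest for 42.0% of all tested genes. Over the whole transcriptome it also differed most from the other libraries of its group, so a deviation of this library is not particular to these genes. That measure has no direction and does not say whether low values are general. It stood at 69.0% of the mean of senescent replicates 1 and 2 for *Myl9* and at 71.4% for *Tpm2*, and at 92.7% for *Tpm1*, where it deviated least. Without this library 6 of the 10 genes were higher and 1 was lower. In that fit 7052 of all 17779 tested genes were higher and 6643 lower, against 6360 and 6005 of 17589 in the main fit. *Acta2* then passed the test at a log2 fold change of 0.09 (adjusted p = 0.0315), *Tagln* rose to 0.68 and *Tpm2* stood at -0.47. *Myl9* came to -0.04 (adjusted p = 0.409), and *Cnn1* to 0.10 (adjusted p = 0.0800). The sizes given above for the genes with small differences thus depend on this library, while the calls of *Tagln*, *Tpm1*, *Tpm2*, *Lmod1*, *Myh11* and *Des* were kept without it.

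Dividing CPM by the exonic length in the table allows levels to be compared roughly between genes, in CPM per kb. The length covers the exons of all splice forms, 6485 bases for *Tpm1*, so the place of such a gene in the order depends on it. In control cells *Tpm1* held 31.7% of the tropomyosin counts but 16.3% of the level per length. In control cells the order was *Acta2* (658 ± 18.4), *Tagln* (364), *Tpm1* (94.0), *Tpm2* (88.4), *Myl9* (83.2), *Cnn1* (18.4), *Actg2* (3.75), *Lmod1* (1.06), *Myh11* (0.148) and *Des* (0.0689). The ranges of *Tpm2* and *Myl9* over the libraries overlapped and those of the other neighbours did not. Within each control library *Tpm2* was above *Myl9*. *Acta2* ranked 49 among the 17589 tested genes in control and 31 in senescent cells, where its mean was 658 ± 68.6, and *Tagln* ranked 115 and then 40. In senescent cells the range of *Tagln* (546) overlapped with that of *Acta2*, though *Acta2* was above *Tagln* within each library. *Myl9* (72.3) stood above *Tpm2* (57.5) within each senescent library, the reverse of their order in control, with overlapping ranges. *Lmod1* (3.80) passed *Actg2* (3.20) without overlap. *Myh11* at 0.741 and *Des* at 0.265 remained the lowest of the 10 after their rise. Together the 10 genes took 0.262%, 0.271% and 0.275% of all counts in the control libraries and 0.351%, 0.339% and 0.291% in the senescent libraries. *Acta2*, *Tagln* and *Tpm1* held 84.8% to 90.9% of these counts.

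The genes that make the same kind of protein outside muscle were compared within each library, as shares of the family per exonic length. Such a share does not depend on the scaling between libraries. The 4 muscle actins (*Acta2*, *Actg2*, *Acta1* and *Actc1*) made up 40.5%, 38.3% and 38.6% of the actin RNA of the control libraries and 31.4%, 30.4% and 30.0% of that of the senescent libraries. The difference of the means was -8.56 percentage points, and all senescent shares lay below all control shares (exact two-sided permutation test over samples, p = 0.1, the smallest that 3 against 3 allows, 0.125 after Benjamini-Hochberg adjustment over the 5 shares tested). Almost all of it was *Acta2*, which went from 38.2% ± 1.22 to 29.7% ± 0.647.

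The cytoplasmic actins rose. *Actb*, the β-actin gene, rose from 1948 ± 186 to 2893 ± 200.0 CPM (log2 fold change 0.57, adjusted p = 0.000535), and its share went from 42.1% to 48.9%. *Actg1*, cytoplasmic γ-actin, rose by 0.49 on the log2 scale (adjusted p = 0.00131) and its share went from 18.8% to 20.5%. The sarcomeric actin *Acta1* was at 18.5 ± 3.00 and 21.5 ± 6.71 CPM and was not called (adjusted p = 0.442), and *Actc1*, cardiac actin, had between 0 and 19 counts per library and was not tested. Of the 100-base windows in the transcripts of *Actg1*, 39.4% occur letter for letter in transcripts of other annotated genes, so its level is uncertain. None of the windows of the 10 contractile genes do. Transcripts were compared in their sense direction only, so bases that *Tagln* and *Des* share with genes on the other strand were not counted.

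Among the tropomyosins, *Tpm2* fell from 14.1%, 16.3% and 15.8% of the family to 8.79%, 8.995% and 5.97%. *Tpm4*, which encodes a non-muscle tropomyosin, was at 61.7%, 58.8% and 59.2% in control and 65.6%, 64.9% and 71.4% in senescent libraries, and in CPM it rose from 760 ± 31.3 to 1085 ± 98.2 (log2 fold change 0.51, adjusted p = 0.000479). The share of *Tpm3* was 8.41% ± 0.165 in control and 7.27% ± 0.514 in senescent cells. The shares of *Tpm2*, *Tpm3* and *Tpm4* did not overlap between the groups (exact permutation p = 0.1 for each, 0.125 adjusted). The share of *Tpm1* was 16.3% ± 0.290 in control and 17.5% ± 1.37 in senescent cells with overlapping values (exact permutation p = 0.4), a difference of 1.16 percentage points. That difference was 2.70 points without overlap when counts were not divided by length (exact permutation p = 0.1), 1.94 points without senescent replicate 3 and 0.688 points without senescent replicate 2. In CPM, *Tpm3* was at 295 and 323 without passing the test (adjusted p = 0.0543), and 27.6% of its exonic windows are shared with other genes, mainly *Tpm3-rs7*. For *Tpm4* 7.64% of the windows are shared, mainly with *Gm7809*.

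**Figure D3:**
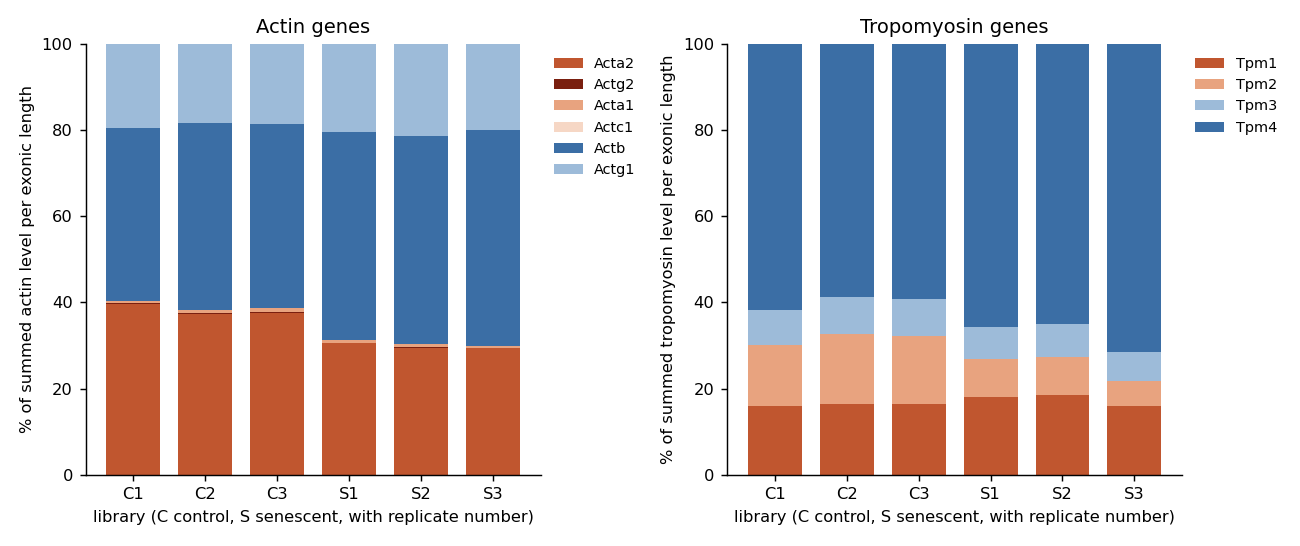
Share of each actin gene (left) and each tropomyosin gene (right) in the summed level per exonic length of its family, in percent, stacked for each of the 6 libraries (C control, S senescent). The *Acta2* share is 29.3% to 30.5% in senescent and 37.3% to 39.6% in control libraries, and the *Tpm2* share is smallest in senescent replicate 3 at 5.97%.

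Genes that control the contractile programme changed unevenly. *Srf* itself was at 37.0 ± 2.17 CPM in control against 49.4 ± 9.03 CPM in senescent cells (log2 fold change 0.42, adjusted p = 0.0215). Of its cofactors, MRTF-A, listed as *Mkl1*, fell from 42.1 ± 4.50 to 30.3 ± 7.30 CPM (log2 fold change -0.47, adjusted p = 0.0407), and MRTF-B, listed as *Mkl2*, was at 53.2 and 51.6 CPM (adjusted p = 0.531). *Myocd*, the myocardin gene that specifies smooth muscle, had 4, 10 and 2 counts in control and 13, 26 and 19 counts in senescent libraries, a low level at which it passed the test (log2 fold change 1.38, SE 0.45, adjusted p = 0.0245).

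In the whole list of 20 SRF cofactors and actin and TGF-β signalling regulators, 11 rose, 2 fell and 7 did not pass, with a median log2 fold change of 0.32. This count and those of the other lists stand beside 36.2% higher and 34.1% lower over all tested genes, and beside their median of 0.01. The smallest p among those that rose belonged to *Klf4* (1.54), a repressor of smooth muscle genes, *Fhl2* (1.41), an SRF-binding LIM protein, and *Rock2* (1.26), a kinase that raises myosin light chain phosphorylation. The genes that fell were *Elk1* (-0.39), which competes with myocardin for SRF, and *Mkl1*. The count of those that fell was 5 without senescent replicate 3 and 1 without control replicate 2, control replicate 3 or senescent replicate 1.

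A second list held 28 other genes of the smooth muscle apparatus, of which 23 were tested, 12 rose, 5 fell and 6 did not pass, with a median of 0.46. Those that rose with the smallest p were *Mustn1* (5.05 to 25.3 CPM, log2 fold change 2.33), the integrin gene *Itga8* (11.5 to 37.8 CPM, 1.71) and the actin-bundling gene *Synpo2* (1.25 to 5.50 CPM, 2.13). *Aoc3*, a vascular amine oxidase, fell by 2.12 on the log2 scale, *Pgm5*, a relative of phosphoglucomutase in adherens junctions, fell by 1.51, and *Csrp1*, a LIM protein of smooth muscle, fell from 589 ± 7.66 to 354 ± 23.7 CPM.

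Among 23 further members of the actin, tropomyosin, tropomodulin, calponin, myosin and filament families, 20 were tested, 9 rose, 6 fell and 5 did not pass, with a median of 0.17. The intermediate filament genes split, with *Nes*, nestin, at 5.96 ± 0.458 and 41.4 ± 0.751 CPM (log2 fold change 2.80) and *Vim*, vimentin, at 4102 ± 169.9 and 2460.2 ± 203.7 CPM (-0.74). The tropomodulins *Tmod1* (1.55) and *Tmod2* (0.85), which cap actin filaments, rose, and the myosin genes *Myl6* (-0.78), an essential light chain, and *Myh10* (-0.42), a non-muscle heavy chain, fell.

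Of 23 focal adhesion and stress fibre genes, 12 rose, 3 fell and 8 did not pass, with a median of 0.42. The LIM genes *Fhl1* (log2 fold change 2.51) and *Pdlim5* (2.05) and the parvin *Parvb* (2.36) had the smallest p among those that rose. *Lasp1* (-0.61), *Ilk* (-0.17) and *Pxn* (-0.28) fell, of which *Ilk* encodes the integrin-linked kinase and *Pxn* paxillin. Leaving out control replicate 2, control replicate 3 or senescent replicate 1 left 1 that fell.

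The myofibroblast matrix and TGF-β list was divided, with 14 of 30 genes higher, 12 lower and 4 not called, and a median of 0.18. *Inhba*, the activin A subunit, was at 29.6 ± 0.675 CPM in control against 274 ± 3.93 CPM in senescent cells (log2 fold change 3.21). *Ctgf*, connective tissue growth factor and a known TGF-β response gene, was at 890.2 ± 8.67 and 3430.5 ± 149.6 CPM (1.95). In contrast *Col3a1*, type III collagen, fell by 2.00, *Cthrc1*, a secreted protein of collagen-producing fibroblasts, by 1.66 and *Sparc*, a collagen-binding matrix protein, by 1.10 on the log2 scale. The genes named from these lists as higher or lower by their p had adjusted p-values from 1.09e-08 for *Inhba* to 0.0407 for *Mkl1*.

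**Figure D4:**
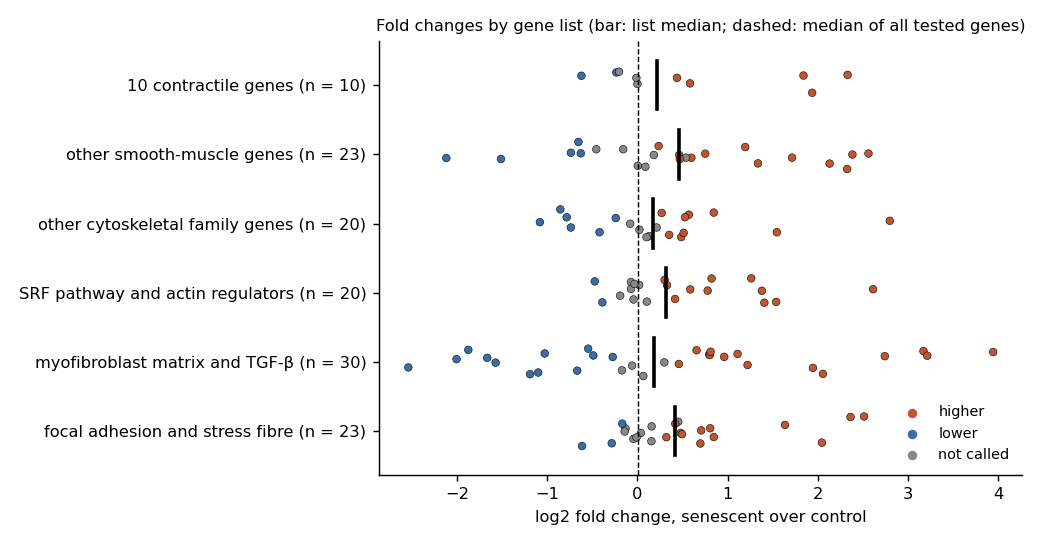
Log2 fold change (senescent over control) of every tested gene of the 10 contractile genes and of 5 lists of related genes, with 1 point per gene, red for higher, blue for lower and grey for not called at an adjusted p under 0.05. Black bars mark the median of each list (0.22, 0.46, 0.17, 0.32, 0.18 and 0.42 from top to bottom) and the dashed line the median of all tested genes at 0.01, and every list holds genes on both sides of 0.

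Markers of cells that express contractile genes were followed beside these results. The 9 markers that define smooth muscle, *Myh11* and *Cnn1* among them, summed to 151 to 172 CPM in control against 142 to 187 CPM in senescent libraries. This sum is mostly *Smtn* (105 and 76.6 CPM, not called) and *Cnn1*. Of 7 tested, 4 were higher and 1 lower, the latter *Casq2* with 15, 16 and 18 counts in control and 11, 16 and 16 in senescent libraries (adjusted p = 0.0492). The calcium handling gene *Pln* was at 0 counts in every control library and at 1 to 4 counts in the senescent ones. The 8 pericyte markers summed to 360 to 416 CPM in control against 195 to 311 CPM in senescent libraries, a sum that is mostly *Cspg4*, yet 5 of 6 tested were higher and *Higd1b* was at 0 in all libraries. The 17 skeletal muscle markers summed to 11.3 to 12.5 CPM in control and 6.50 to 6.96 CPM in senescent libraries, a fall carried mostly by *Tnni2* (7.21 to 0.849 CPM), with *Myf6* and *Myh8* at 0 in all libraries. Of 6 tested, 3 were lower and 2 higher, namely *Ttn* (log2 fold change 2.46) and *Myh3*, which had 0 counts in each control library and 23, 26 and 34 counts in the senescent ones. *Pax7* had 0 counts in control and 9, 9 and 11 counts in senescent libraries and was not tested. The 8 cardiac markers summed to 3.82 to 4.51 and 3.44 to 3.68 CPM, with 1 higher and 1 lower of 2 tested. What part these markers, and the chondrocyte markers given further up, have in the values of the contractile genes was not tested.

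The genes whose profile over the 6 libraries was most like that of *Acta2* were *Tars2*, *Actr1a*, *Ctbp2*, *Smg5* and *Nfrkb*, with root mean square distances of 0.0207, 0.0207, 0.0268, 0.0277 and 0.0288 in centred log2 CPM. They were taken from 12949 tested genes with 100 or more counts on average. The other 9 contractile genes were left out of this search beforehand, so it does not say how close they lie to *Acta2*.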

How the data were processed

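RNA-seq libraries of polyadenylated RNA (TruSeq stranded mRNA kit, 200 ng of RNA, paired reads of 100 bases on a NovaSeq) were mapped by the authors to mm10 with STAR in MAPRSeq and counted per gene with Subread. The authors deposited raw counts per gene with the gene's exonic length in bases, coordinates and name. The strand setting, the treatment of reads with several matches and the annotation release are not given in the sources used here. All columns of values belonged to the 6 libraries.

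From the deposited counts, genes were filtered with filterByExpr (default minimum of 10 counts), scaled by TMM (factors 0.968 to 1.03) and compared with edgeR 4.0.16 in R 4.3.3, using the robust quasi-likelihood test with group as the only term, two-sided, with Benjamini-Hochberg adjustment over 17589 genes. A gene was called at an adjusted p under 0.05. The common biological coefficient of variation was 0.100. Family shares used counts divided by exonic length and exact permutation tests (scipy 1.17.1). The fit was tested on simulated data before use. Total counts were 50288454 to 82229553 per library, so that 3 counts, the limit that a count of 0 allows, are under 0.1 CPM, and counting error alone is covered by such a limit.

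All replicate pairs differed by more than counting noise. The median squared difference per gene was 12.7 and 16.3 times that of counting noise for senescent replicate 3 against senescent replicates 1 and 2. It was 2.14 times between senescent replicates 1 and 2, and 1.75 to 4.63 times between control libraries. Deviations from the group mean correlated between same-numbered control and senescent libraries at -0.37, 0.29 and -0.26, and replicate numbers were not used as pairs. Such deviations are tied to each other within a group, so these correlations cannot show whether same-numbered libraries share a culture. The table's exonic length equals that of GENCODE M21 for *Myl9*, *Tpm1*, *Tpm2*, *Lmod1* and *Des*, and differs for *Acta2* (1781 against 2196 bases), *Tagln* (1586 and 1988), *Cnn1* (2368 and 2736), *Myh11* (6632 and 7599) and *Actg2* (1562 and 1557). Promoter sequences came from RefSeq.

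The 10 genes and all lists were chosen with earlier results of these data known. Named by rule were the 10 genes, 5 senescence genes, all actins and tropomyosins, *Srf* and its 3 cofactors, the 3 genes with the smallest p per direction in each list (adjusted p under 0.05, mean of at least 100 counts) and the 5 profiles nearest to *Acta2*. Of the genes this rule takes from the lists, 1 is not reported here. Other genes were picked after looking at their values. Marker lists covered smooth muscle, pericytes, fibroblasts, skeletal and cardiac muscle, endothelium, macrophages, keratinocytes, chondrocytes, and Schwann cells with melanocytes. Alternatives were DESeq2 1.42.0, the exact test of edgeR, RLE scaling, library size alone, a filter of 10 counts in every library, no filter (1 count in total), a replicate block, the DEG limits of the study's methods, a stricter p of 1e-05 (added after seeing the data) and leaving out each library. Shares were also computed from counts without length and with each library left out.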

Additional observations from a re-analysis of the deposited data

How the results depend on the processing

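*Tagln* (0.52 to 0.68), *Tpm1* (0.43 to 0.52), *Tpm2* (-0.70 to -0.47), *Lmod1* (1.80 to 1.92) and *Myh11* (2.22 to 2.42) kept their direction and call in all 13 alternative fits, and *Des* (1.71 to 2.23) in the 12 that tested it, since 10 counts in every library removes it. *Myl9* was called in 0 of 13, with log2 fold changes from -0.29 to -0.04. Of the 10 genes, 5 were called higher and 2 lower, 3 and 0 were so under the DEG limits, and 2 and 0 with an unadjusted p under 1e-05 and an absolute log2 fold change over 1, a setting chosen after seeing the data. The count of lower genes was 1 under RLE scaling, library size alone, no filter, at least 10 counts in every library, the exact test and DESeq2, and 1 with any library left out, the gene lost being *Actg2*. With the replicate block 5 were higher and 1 lower (*Actg2* at an adjusted p of 0.0949), and no other call on these genes changed. *Acta2* turned to -0.00748 without a filter and to -0.00443 with the replicate block, and ranged from -0.0595 to 0.0898 with a library left out. *Cnn1* turned to 0.00891 under RLE scaling, 0.0665 under library size alone, 0.0377 with at least 10 counts in every library and 0.00588 in DESeq2, and ranged from -0.0711 to 0.0952 with a library left out. Neither was called in those fits, apart from *Acta2* without senescent replicate 3. In the list of SRF and actin regulators the lower genes numbered 2, but 1 under library size alone, no filter and at least 10 counts in every library, and 1 to 5 with a library left out. In the focal adhesion list they numbered 3, but 1 under library size alone and at least 10 counts in every library, and 1 to 3 with a library left out. The cause of these shifts was not tested. Groups of 3 libraries limit what can be seen, since the exact test on shares cannot go below p = 0.1, and *Des* and *Myocd* rest on few counts.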

Other observations

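Several genes of the myofibroblast matrix list outside the rule for named genes, picked after their values had been looked at, had large differences. *Fap*, the fibroblast activation protein, was at 0.491 ± 0.0371 CPM in control against 7.59 ± 0.892 CPM in senescent cells (log2 fold change 3.94, adjusted p = 2.40e-07), and *Lrrc15*, a marker of TGF-β-driven fibroblasts, at 0.666 ± 0.115 and 5.997 ± 0.247 CPM (3.17, adjusted p = 4.87e-07). *Cdh11*, a cadherin of contractile fibroblasts, was at 40.8 ± 3.40 and 169.6 ± 13.6 CPM (2.06). The fibrillar collagens went the other way, with *Col1a1* at 4435 ± 512 and 763 ± 212 CPM (-2.54) and *Col1a2* at 5612 ± 330 and 1531 ± 239 CPM (-1.87). *Fn1*, fibronectin, at 45655 ± 414 and 43858 ± 2275 CPM, did not pass the test (-0.06, adjusted p = 0.360). In the same list *Tgfb1* (16.2 to 28.2 CPM), *Tgfb2* (17.8 to 31.1 CPM) and *Tgfbr1* (36.8 to 64.5 CPM) rose, *Tgfbr2* (196 to 163 CPM) fell and *Tgfb3* did not pass.

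Among the pericyte markers, also picked after their values were seen, *Rgs5* was at 0.708 ± 0.159 CPM in control against 11.4 ± 0.555 CPM in senescent cells (log2 fold change 4.0, adjusted p = 2.13e-07), and *Mcam* at 4.05 ± 0.0869 and 23.1 ± 1.75 CPM (2.51). *Abcc9*, a subunit of vascular potassium channels, had 0, 0 and 1 counts in control and 157, 197 and 271 counts in senescent libraries. *Kcnj8*, its channel partner, had 0 counts in each control library and 10, 26 and 22 counts in the senescent ones. *Cspg4*, which encodes NG2, fell from 386 ± 30.6 to 221 ± 59.6 CPM (-0.81, adjusted p = 0.00520). Endothelial markers summed to 2.43 to 2.83 CPM in control against 7.63 to 8.48 CPM in senescent libraries (4 of 4 tested higher), macrophage markers to 5.53 to 6.05 and 9.62 to 11.5 CPM (4 of 4 higher), and Schwann cell and melanocyte markers, of which *Mbp* is the largest, to 29.2 to 29.5 and 12.2 to 14.2 CPM (3 of 4 lower). Keratinocyte markers summed to 15.9 to 16.6 and 12.2 to 13.6 CPM, with 1 lower and 1 higher of 4 tested. These were *Trp63*, at 13.1 and 4.17 CPM, and *Krt15*, with 2, 8 and 3 counts in control and 316, 460 and 379 counts in senescent libraries.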
